A study of Mus musculus with 15 samples.

Results

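TRBV12, TRBV15 and TRBV16 are variable (V) segment families of the T-cell receptor beta chain (TCRβ). Pooled over libraries, they made up 0.902% of the clonotypes of tetramer-binding T cells of these mice, against 17.9% in the other cells. The gap was smallest for TRBV15 in wild-type mice, 0.923% against 3.48%, where the tetramer-binding libraries held 325 clonotypes in all. Members of the 3 families were the clonotypes whose deposited V family was one of these names, 9710 of 59364 clonotypes in 15 libraries. TRBV12 had 3441 of them, TRBV15 1939 and TRBV16 4330. Only 50 of the 9710 lay in tetramer-binding libraries, 4 of TRBV12, 20 of TRBV15 and 26 of TRBV16. The families were chosen by their measured shares of clonotypes and counts in tetramer-binding against other cells, so the comparison of the cell fractions below is a description with no test.

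The mice were non-obese diabetic (NOD), a strain with autoimmune diabetes, all 125 days old. They carried a mutation of Ifngr1, a chain of the interferon-γ receptor, or were wild type (WT). Spleen and non-draining lymph nodes of each mouse were pooled, and cells were stained with H-2Kd tetramer (8 nM) holding IGRP206–214, a peptide of a pancreatic beta cell protein. Cells kept on the magnetic column are called TET, and CD8+CD44+ cells of the flow-through are called CD8. The groups were mutant TET (n = 4), WT TET (n = 3), mutant CD8 (n = 4) and WT CD8 (n = 4). A library of another WT TET sample was not analysed here. The tables hold receptor sequences alone, so the sorted cell types could not be checked against marker genes.

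A beta chain forms when a V segment is joined to a diversity (D) and a joining (J) segment. The joint encodes the CDR3 loop, the part of the chain that usually lies over the peptide, while the V segment encodes the loops that usually lie over the presenting molecule. The IGRP206–214-specific T-cell clone NY8.3 uses TRBV13 (Vβ8 in the older naming). TRBV12 corresponds to Vβ5, TRBV15 to Vβ12 and TRBV16 to Vβ11. T cells with these 3 V segments are removed by endogenous superantigens in mouse strains that express the class II molecule I-E, which NOD mice lack.

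In the RefSeq gene table (GRCm38.p6, used for names and neighbours only) all 3 families lie on chromosome 6. The Trbv12 genes alternate with the Trbv13 genes. Trbv14, Trbv15, Trbv16 and Trbv17 follow them in that order. The TRBV12 family holds 2 functional genes and a pseudogene, which the deposited tables do not separate.

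The TET libraries differed in size. The mutant TET libraries held 393 to 2199 clonotypes and 17294 to 60164 counts. The WT TET libraries held 97 to 126 clonotypes and 2536 to 14958 counts. CD8 libraries held 2040 to 9827 clonotypes and 17116 to 32856 counts. A family not found among the 2199 clonotypes of mutant TET 2 could make up as much as 0.136% of them, and among the 97 clonotypes of WT TET 3 as much as 3.09% (3 clonotypes). These limits and all intervals cover counting error only. Intervals of count shares treat each count as a separate observation, although it is not stated whether counts are reads or molecular identifiers. Intervals of the folds below pool clonotypes over mice and hold the CD8 share fixed. They cover neither the spread between mice nor the choice of the families, so they are no test of the fractions. Fewer cells with a receptor and less receptor RNA per cell cannot be told apart in such libraries.

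The CDR3 sequences of the TET clonotypes show what was left of the 3 families. All 4 TRBV12 clonotypes are printed, and for TRBV15 and TRBV16 the 5 that took the largest share of their library. A TRBV16 clonotype found in more than 1 TET library follows. Capitals mark the bases between the end of the deposited V match and the start of the J match, and sequences run 5′ to 3′.
TRBV12, mutant TET 1, 8 counts: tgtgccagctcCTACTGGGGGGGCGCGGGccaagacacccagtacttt
TRBV12, mutant TET 4, 8 counts: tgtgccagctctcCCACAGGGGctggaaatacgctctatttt
TRBV12, mutant TET 1, 2 counts: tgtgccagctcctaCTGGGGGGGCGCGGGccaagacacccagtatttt
TRBV12, mutant TET 2, 1 count: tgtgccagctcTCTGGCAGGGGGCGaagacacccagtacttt
TRBV15, WT TET 1, 13 counts: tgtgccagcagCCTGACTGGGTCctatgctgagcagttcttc
TRBV15, mutant TET 2, 10 counts: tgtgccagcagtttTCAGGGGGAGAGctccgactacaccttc
TRBV15, WT TET 1, 2 counts: tgtgcaaactccgactacaccttc
TRBV15, mutant TET 1, 6 counts: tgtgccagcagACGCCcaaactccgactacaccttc
TRBV15, mutant TET 1, 5 counts: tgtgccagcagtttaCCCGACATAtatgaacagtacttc
TRBV16, WT TET 1, 8 counts: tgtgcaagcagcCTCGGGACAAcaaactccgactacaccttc
TRBV16, mutant TET 3, 23 counts: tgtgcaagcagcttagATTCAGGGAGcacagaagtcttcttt
TRBV16, mutant TET 3, 16 counts: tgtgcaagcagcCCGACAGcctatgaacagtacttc
TRBV16, mutant TET 1, 11 counts: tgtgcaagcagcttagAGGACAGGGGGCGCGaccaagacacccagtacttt
TRBV16, mutant TET 3, 11 counts: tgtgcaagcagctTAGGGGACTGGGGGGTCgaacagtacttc
TRBV16, mutant TET 2 and mutant TET 3, 3 counts in each: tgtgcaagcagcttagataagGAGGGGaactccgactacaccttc

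TRBV12 was the family nearest to absence. Of the clonotypes it made up 0.201% in mutant TET 1, 0.0455% in mutant TET 2, 0% in mutant TET 3 and 0.254% in mutant TET 4, and 0% in each of the 3 WT TET libraries. Its shares were 6.49%, 6.29%, 6.01% and 6.88% in mutant CD8 1 to 4 and 6.47%, 5.83%, 6.57% and 6.44% in WT CD8 1 to 4. The highest TET share was thus far below the lowest CD8 share, and the groups of the fractions did not overlap. Some families outside the 3 did not overlap either, as given below. Pooled over libraries, TRBV12 had 4 of 5220 mutant TET clonotypes, against 1982 of 30876 in mutant CD8, a share 83.8-fold lower (exact 95% interval of the TET share 0.0209% to 0.196%). In WT TET it had 0 of 325 clonotypes, against 6.34% in WT CD8. With 3 clonotypes over the group as the limit, its share was up to 0.923%, at least 6.87-fold lower. The exact 95% interval of the share is wider and reaches 1.13%, which is 5.62-fold lower.

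TRBV16, the most frequent of the 3 in CD8, had some more clonotypes left. Its share was 0.602%, 0.455%, 0.429% and 0% in mutant TET 1 to 4 and 0.98%, 1.59% and 0% in WT TET 1 to 3. In mutant CD8 it was 7.93%, 7.92%, 8.15% and 8.6%, and in WT CD8 8.14%, 6.32%, 7.77% and 8.42%. Every TET library lay below every CD8 library. Pooled, it had 23 of 5220 clonotypes in mutant TET, 18.6-fold below mutant CD8 (exact 95% interval 12.4 to 29.4), and 3 of 325 in WT TET, 8.35-fold below WT CD8 (exact 95% interval 2.88 to 40.4).

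TRBV15 had the smallest difference of the 3. Its share was 0.502%, 0.273%, 0.307% and 0.254% in mutant TET 1 to 4 and 1.96%, 0.794% and 0% in WT TET 1 to 3. In mutant CD8 it was 3.31%, 3.35%, 3.95% and 3.64%, and in WT CD8 3.43%, 3.29%, 3.15% and 3.89%. The fractions did not overlap here either, although WT TET 1 came nearest to CD8, with 2 of its 102 clonotypes. Pooled, TRBV15 was 11.1-fold lower in mutant TET than in mutant CD8 (exact 95% interval 6.96 to 19.1). In WT TET it had 3 of 325 clonotypes and was 3.77-fold below WT CD8 (exact 95% interval 1.3 to 18.3).

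**Figure D1:**
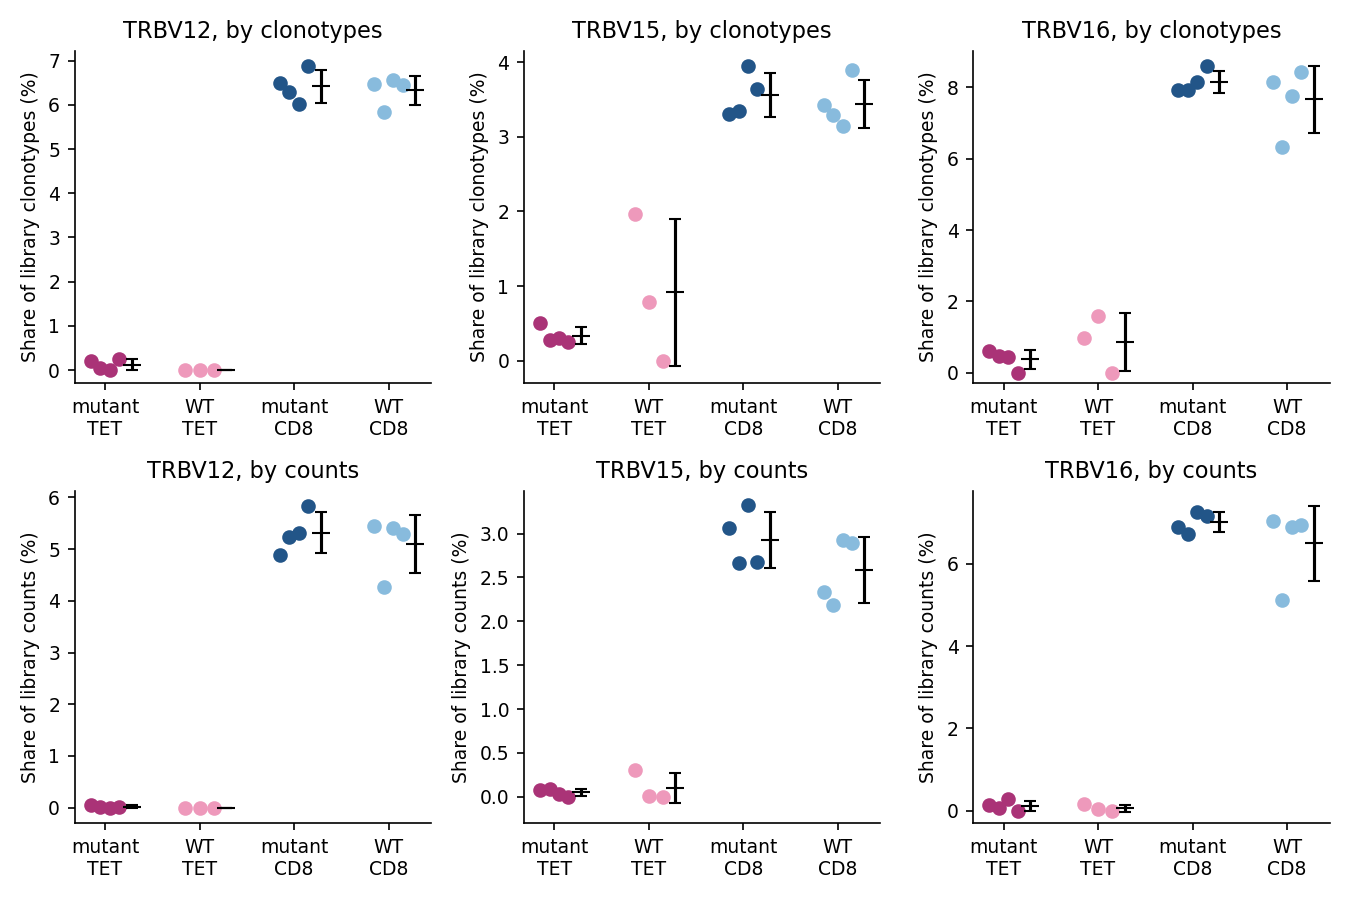
Share of library clonotypes (upper panels) and of library counts (lower panels), in percent, for TRBV12, TRBV15 and TRBV16. Each point is 1 library, and bars beside the points are means ± SD (mutant TET n = 4, WT TET n = 3, mutant CD8 n = 4, WT CD8 n = 4). No TET point reaches the lowest CD8 point in any panel.

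Together the 3 families made up 0.83 ± 0.337% of mutant TET clonotypes and 1.77 ± 1.56% of WT TET clonotypes, against 18.1 ± 0.699% in mutant CD8 and 17.4 ± 1.42% in WT CD8 (SD over libraries). By counts, which weigh each clonotype by its size, they took 0.191 ± 0.135% of mutant TET and 0.168 ± 0.256% of WT TET, against 15.3 ± 0.628% of mutant CD8 and 14.2 ± 1.74% of WT CD8. As a fold the gap between the fractions was wider by counts than by clonotypes, while in percentage points it was narrower. Over all libraries the mean TRBV12 share was 89.1-fold lower in TET than in CD8 by clonotypes and 483-fold lower by counts. For TRBV16 these values were 13.7-fold and 68.9-fold, and for TRBV15 5.99-fold and 38-fold. Single libraries moved these folds. Without mutant TET 1, which held 10 of the 19 TRBV12 counts in TET, the TRBV12 fold by counts was 1760, and without mutant TET 4 its fold by clonotypes was 155. Without WT TET 1 the TRBV15 folds were 9.87 and 80.4. The TRBV16 fold by counts was 103 without mutant TET 3, and other omissions of 1 TET library moved it less.

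Among the 15 families with at least 1% of CD8 clonotypes, the 3 had the lowest ratios of TET to CD8 shares. TRBV12 stood at 0.0112, TRBV16 at 0.0732 and TRBV15 at 0.167. The next was TRBV3 at 0.335, which lies outside the 3 and was 2.99-fold lower in TET. TRBV13, whose genes alternate with those of TRBV12, stood at 1.45. The neighbours of TRBV15 and TRBV16 on the chromosome stood at 0.356 (TRBV14) and 0.354 (TRBV17). By counts the order of the 3 was the same, and TRBV14 at 0.0641 and TRBV17 at 0.0866 came next, below TRBV3 at 0.193. Fractions that do not overlap by clonotypes were not confined to the 3. The highest TET and lowest CD8 shares were 3.09% and 3.69% for TRBV3 and 5.15% and 5.4% for TRBV29. TRBV13 was separate in the other direction, with a lowest TET share of 44.8% and a highest CD8 share of 37.6%. How many of the 15 families had fractions that do not overlap was not counted, so this trait does not set the 3 apart.

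**Figure D2:**
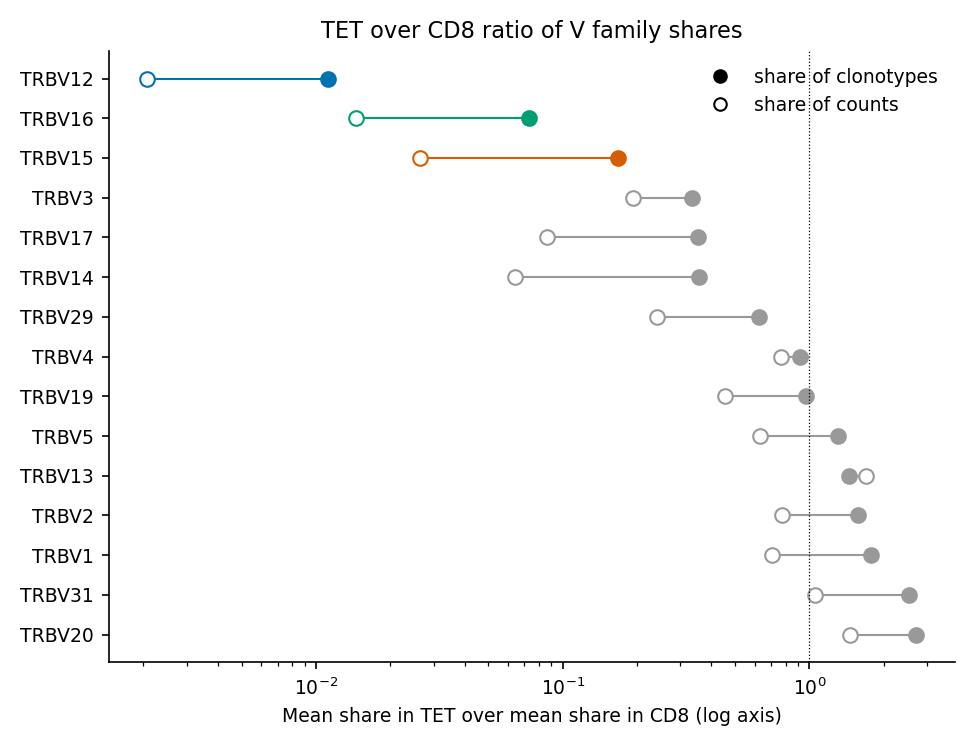
Mean share in TET (n = 7) over mean share in CD8 (n = 8) for the 15 V families with at least 1% of CD8 clonotypes, on a log axis. Filled points use shares of clonotypes and open points shares of counts. TRBV12, TRBV16 and TRBV15 have the lowest ratio by both measures, and TRBV12 by counts lies at 0.00207.

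Over the 15 libraries the 2 families whose clonotype share was most like that of each of the 3 were the other two of them, but these libraries fall into fractions that lie far apart, so the likeness is given within CD8 only. Over the 8 CD8 libraries TRBV12 was most like TRBV16 (Pearson r = 0.725) and TRBV3 (r = 0.597). TRBV16 was most like TRBV12 and then TRBV3 (r = 0.564), and TRBV15 was most like TRBV4 (r = 0.739) and TRBV14 (r = 0.721). Between TRBV12 and TRBV15 r was -0.0491 in CD8. WT CD8 2 had the lowest CD8 share of TRBV12 (5.83%), of TRBV16 (6.32%) and of TRBV3 (3.69%). The r values among these families may rest on that library, and whether they hold without it was not tested. All shares of a library share its total.

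The TET clonotypes of the 3 families had low counts, from 1 to 23 with a median of 2. The median was below that of the other families in mutant TET 1 (2 against 6), mutant TET 2 (1 against 4) and mutant TET 3 (2 against 3). It was also lower in WT TET 1 (8 against 29) and WT TET 2 (1 against 12). In mutant TET 4, with 2 clonotypes of the 3 families, it was higher (4.5 against 2). A single count was held by 22 of the 50 (44%), against 1744 of 5495 (31.7%) in the other families, and 6 had 10 or more. The share with a single count was not higher in every library: it was 33.3% against 38.5% in mutant TET 3 and 0% against 11.1% in WT TET 1. TRBV12 had clonotypes of 8, 8, 2 and 1 counts. The highest counts were 13 for TRBV15 and 23 for TRBV16.

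No clonotype of the 3 families came near the largest of its library in count. The best rank by count was 67 of 102 clonotypes, held by a TRBV15 clonotype of WT TET 1. It had 13 counts and 0.262% of the library (exact 95% interval 0.139% to 0.447%). The largest clonotype of the other families in that library had 1094 counts, 84.2 times as many. In mutant TET 3 the largest clonotype of the 3 families, a TRBV16 receptor, had 23 counts beside 2376 in the largest of the other families. This TRBV16 receptor ranked 160 of 1631 clonotypes, which is higher for the size of its library than rank 67 of 102. In mutant TET 4, the library with most counts, the largest was a TRBV12 clonotype of 8 counts, beside 7893.

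**Figure D3:**
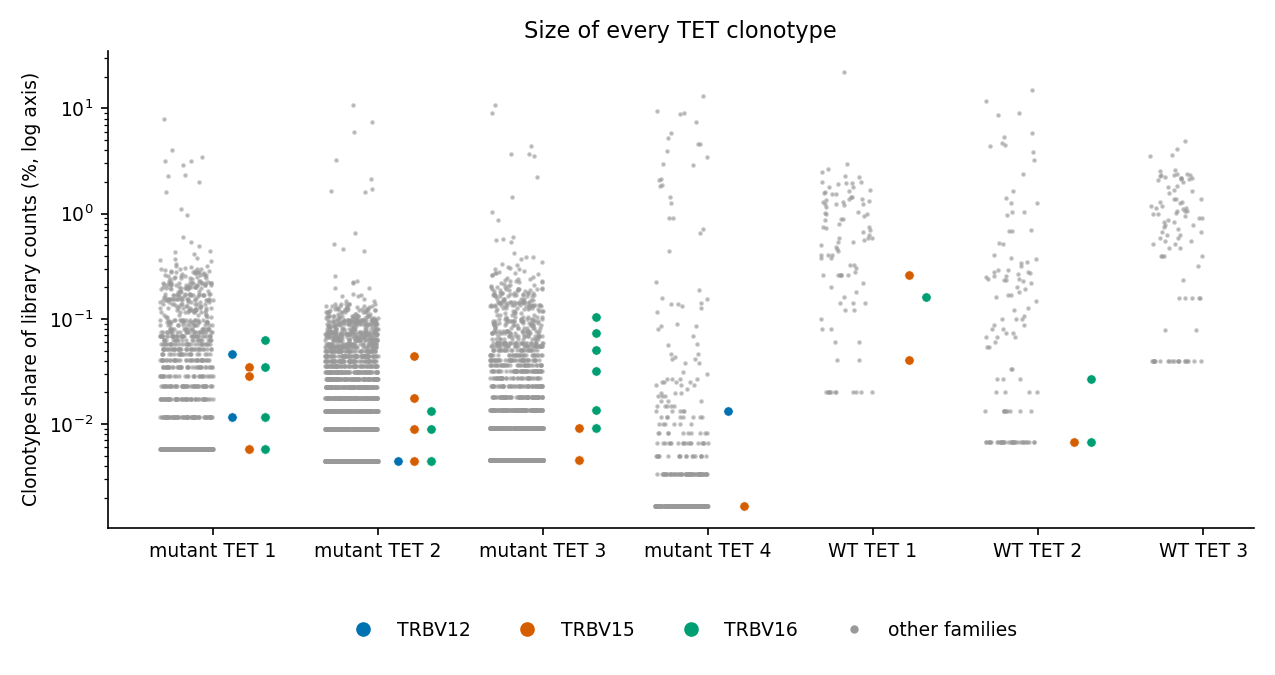
Share of library counts, in percent on a log axis, of every clonotype in the 7 TET libraries. Coloured points are TRBV12, TRBV15 and TRBV16 clonotypes and grey points those of the other families, spread sideways for legibility. All coloured points lie at or below 0.262%, while the largest grey point of each library lies between 4.89% and 22.0%, and WT TET 3 has no coloured point.

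Among the 50, 2 clonotypes differed from a larger clonotype of the same library by 1 base. Both pairs lay in mutant TET 1 and are shown because such neighbours bear on how many receptors were left, with the differing base in capitals. In the TRBV12 pair the change C45T left the translation the same, and in the TRBV16 pair the change C20T altered it (the larger clonotype's base first, positions counted from 1 at the 5′ end of the CDR3). Whether these are separate cells or copying errors of 1 receptor was not tested. The deposited V match of the TRBV12 pair ends at different bases although the letters there are the same, so the ends of the capitals above are only as exact as that match.
TRBV12, 8 counts: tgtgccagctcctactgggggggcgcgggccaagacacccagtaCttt
TRBV12, 2 counts: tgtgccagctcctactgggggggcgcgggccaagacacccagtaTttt
TRBV16, 2 counts: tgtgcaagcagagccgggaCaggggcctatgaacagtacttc
TRBV16, 1 count: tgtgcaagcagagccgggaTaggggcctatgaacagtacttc

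The joints of the 50 TET clonotypes varied. CDR3 length was 14 to 16 amino acids in TRBV12, 8 to 15 with a median of 13.5 in TRBV15, and 12 to 18 with a median of 14 in TRBV16. The V match reached 11 to 14 bases into the CDR3 in TRBV12, 5 to 16 in TRBV15 and 11 to 21 in TRBV16. Between the V and J matches lay a median of 14.5 bases in TRBV12, 9 in TRBV15 and 8.5 in TRBV16. A J segment of the second cluster, TRBJ2, was used by 34 of the 50, and one of the first cluster, TRBJ1, by 16. The shortest CDR3, of 8 amino acids, was the TRBV15 clonotype of WT TET 1 with 2 counts, which had no base between its V and J matches.

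Whether the CD8 cells held the same receptors was asked by exact match of the nucleotide CDR3, whatever the V family. Every match of the 50 carried the same V family. TET and CD8 libraries of the same strain and number were taken as 1 mouse. Of the 50 entries 1 was also in the CD8 library of its own mouse, and 9 more were in CD8 libraries of other mice alone. The share in the own CD8 library was 2%, against 2.4% in the other families (132 of 5495). The share in any CD8 library was 20%, against 15.1% in the other families (827 of 5495). Without WT TET 2, where 3 of 3 were found, both were 14.9%. In no other library at all were 38 of the 50, with all 4 of TRBV12 among them. That count is not given for the other families, most of whose TET clonotypes were also in no CD8 library. It therefore does not set the 3 families apart.

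The entry shared with its own mouse was TRBV15 in mutant TET 2, the sequence with 10 counts printed above. It had 1 count in mutant CD8 2 and was also in mutant TET 3 (1 count), mutant CD8 4 (1 count) and WT CD8 2 (4 counts). A TRBV16 clonotype with 3 counts in mutant TET 2 and 3 in mutant TET 3 was in no CD8 library. A pair of TRBV16 clonotypes had at least 10 times as many counts in WT CD8 1 as in the TET library, 20 counts beside 2 in mutant TET 1 and 21 counts beside 1 in mutant TET 2. Whether such entries were carried over between libraries was not tested.

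In the CD8 cells these families were common. Of the 15 families TRBV16 had the second highest mean share of CD8 clonotypes at 7.91%, after TRBV13 at 35.2%, and TRBV12 the third at 6.37%, while TRBV15 had 3.5%. The CD8 clonotype with the largest share of its library is printed for each of the 3. None of them was found in a TET library, but whether this differed from large CD8 clonotypes of other families was not tested.
TRBV12, WT CD8 1, 65 counts: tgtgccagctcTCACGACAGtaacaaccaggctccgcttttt
TRBV15, mutant CD8 1, 82 counts: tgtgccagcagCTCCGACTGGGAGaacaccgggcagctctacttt
TRBV16, WT CD8 1, 36 counts: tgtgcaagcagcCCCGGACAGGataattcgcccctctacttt
The TRBV15 clonotype had 0.392% of mutant CD8 1 (exact 95% interval 0.312% to 0.487%) and ranked 2 in that library by count. The TRBV12 clonotype had 0.38% of WT CD8 1 and ranked 4, and the TRBV16 clonotype had 0.21% and ranked 31. The best rank in a TET library was 67 of 102 clonotypes, as given above. Mutant CD8 1 held 4502 clonotypes and WT CD8 1 held 2040, so these ranks do not compare directly.

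Receptors found in several mice were counted as V family and amino acid CDR3 over the 8 CD8 libraries. Of the TRBV12 receptors 214 of 3047 (7.02%) were in at least 2 libraries, of TRBV16 178 of 3922 (4.54%) and of TRBV15 55 of 1778 (3.09%). TRBV13, with many more receptors, had 8.68%. The remaining families with at least 1% of CD8 clonotypes ranged from 1.64% (TRBV2) to 5.84% (TRBV1). A receptor found in most libraries is printed for each family, in its most abundant nucleotide form. For TRBV16 it was tied with others found in 4 libraries, and the one with the highest mean share is shown. None of the 3 had an entry in a TET library, which was not compared with the shared receptors of other families.
TRBV12, found in 6 CD8 libraries: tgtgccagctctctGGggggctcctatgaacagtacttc
TRBV15, found in 4 CD8 libraries: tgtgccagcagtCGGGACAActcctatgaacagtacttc
TRBV16, found in 4 CD8 libraries: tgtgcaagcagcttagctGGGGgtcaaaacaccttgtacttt

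Interferon-γ receptor status was compared within each fraction. The strain contrast did not choose the families, but their low TET shares did enter that choice. The comparison within TET is therefore not free of selection. In CD8 the clonotypes of 17 V families were tested with edgeR's quasi-likelihood test and Benjamini-Hochberg adjustment, and 0 of the 3 families passed. The background was 0% of the 17, with 0 at an unadjusted p under 0.05 and 0 by DESeq2. The log2 fold change of mutant over WT CD8 was 0.02 ± 0.08 for TRBV12 (SE, adjusted p = 0.864), 0.06 ± 0.09 for TRBV15 (adjusted p = 0.73) and 0.09 ± 0.08 for TRBV16 (adjusted p = 0.671) by edgeR. The combined share of the 3 differed by 0.702 percentage points between mutant and WT CD8 (two-sided exact permutation p = 0.429, adjusted 0.429 over the 2 fractions). None of these passed its test, and 70 splits allow no exact p below 0.0286. Without WT CD8 2 the combined difference was 0.0407 points, without mutant CD8 4 0.373 and without WT CD8 4 1.14.

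Other families that endogenous superantigens remove in some mouse strains were tested in the same fit. TRBV19 (Vβ6), TRBV26 (Vβ3) and TRBV29 (Vβ7) had log2 fold changes of 0.10, 0.21 and 0.08 for mutant over WT CD8, each with an edgeR adjusted p of 0.671. TRBV24 (Vβ17) was too rare to test. By clonotypes the TET to CD8 ratio was 0.972 for TRBV19, 0.623 for TRBV29, 0.622 for TRBV26 and 0.153 for TRBV24. The TRBV24 ratio, which lies below that of TRBV15, rests on 1 TET and 19 CD8 clonotypes, and that of TRBV26 on 4 and 211. By counts the ratios were 0.454, 0.24, 0.0285 and 0.0355, the last 2 of them close to the 0.0263 of TRBV15.

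In TET the combined clonotype share differed by -0.944 percentage points between mutant and WT mice (two-sided exact permutation p = 0.343, adjusted 0.429), where 35 splits allow no p below 0.0286. By counts the sign turned, to 0.0238 points, and leaving out 1 library gave values from -1.83, without WT TET 3, to -0.36, without WT TET 1. Each WT TET value rested on 3 clonotypes or fewer per library. Whether the difference between the fractions itself differed by strain could not be judged for the 3 families, since WT TET held 0, 3 and 3 of their clonotypes and they entered the fit over 15 families through their CD8 clonotypes alone. In that fit 0% of the 15 were called by edgeR, with 3 at an unadjusted p under 0.05, and 0 called by DESeq2, also with 3 unadjusted. The log2 difference of the TET minus CD8 effect, mutant minus WT, was -1.55 ± 0.99 for TRBV15 and -1.16 ± 1.05 for TRBV16 (SE). It was -0.51 for TRBV15 without WT TET 1 and -0.28 for TRBV16 without WT TET 2. TRBV12 had no usable value, as WT TET held none.

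The CD8 receptors of the 3 families differed from those of the other families in their J segments. The share of clonotypes with TRBJ1 was 24.4 ± 3.41% in TRBV12, 21 ± 3.99% in TRBV15 and 20.9 ± 2.28% in TRBV16, against 29.5 ± 1.8% in the other families (SD, n = 8 CD8 libraries). TRBJ1 was lower in 8 of 8 libraries for each family, with mean differences of -5.15 percentage points in TRBV12, -8.55 in TRBV15 and -8.59 in TRBV16. Each difference passed the two-sided exact sign-flip permutation test (p = 0.00781, the smallest that 8 libraries allow, adjusted 0.0104 over 12 such tests). The difference ranged from -9.87 to -0.199 in TRBV12, from -16.7 to -2.91 in TRBV15 and from -11.9 to -4.31 in TRBV16, so TRBV12 came close to the other families in WT CD8 1. Weighted by counts, the TRBV12 difference was -4.94 points with an adjusted exact p of 0.0511. Against families that are neither these 3 nor TRBV13 the differences were smaller but kept their direction. They were -3.49 points in TRBV12 (adjusted exact sign-flip p = 0.0268), -6.89 in TRBV15 (0.0156) and -6.92 in TRBV16 (0.0156).

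The D segment went the same way, as a description. TRBD2, which lies after the TRBJ1 cluster and can join only TRBJ2, was named in 37.6 ± 2.02% of TRBV12, 39.9 ± 2.36% of TRBV15 and 41.4 ± 2.8% of TRBV16 clonotypes, against 31.7 ± 1.29% in the other families (SD, n = 8). TRBD1 was named in 36.1%, 39.6% and 37.6% of these 3 families, against 42.4%. No D segment was named in 26.4%, 20.5% and 21% of them, against 25.9%, so these shares also depend on how often a D was named. The naming is not exact, since a TRBV16 clonotype of mutant TET 2 with 1 count was given TRBD2 with TRBJ1. The bases between the V and J matches averaged 10.5 in TRBV12, 9.77 in TRBV15 and 10.5 in TRBV16, against 9.57 in the other families.

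CDR3 length set the 3 families apart from each other. TRBV16 had a mean of 14.2 amino acids, against 13.9 in the other families, and was longer by 0.366 in 8 of 8 libraries (exact sign-flip p = 0.00781, adjusted 0.0104). TRBV15 had 13.7 and was shorter in 7 of 8 libraries, with a mean difference of -0.188 (exact p = 0.0156, adjusted 0.0187). TRBV12 had 14.0 and was longer by 0.0921 in 8 of 8 (adjusted exact p = 0.0104), but against families other than TRBV13 it was shorter, by a difference of -0.0437 (adjusted exact p = 0.0352). The TRBV12 direction therefore depended on TRBV13, the most frequent family. Without TRBV13 the difference was -0.324 in TRBV15 and 0.23 in TRBV16, each in the same direction as before. Weighted by counts the TRBV15 difference was -0.11 with an adjusted exact p of 0.0511.

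**Figure D4:**
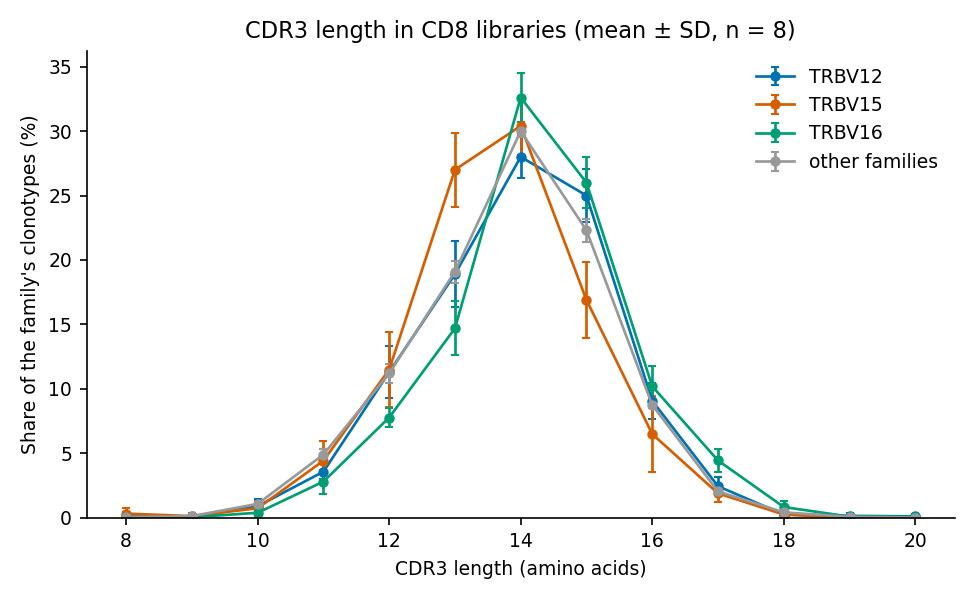
Share of clonotypes, in percent, by CDR3 length in amino acids for TRBV12, TRBV15, TRBV16 and the other families in CD8 (mean ± SD over 8 libraries). TRBV15 has more receptors of 13 amino acids (27.0%) than TRBV16 (14.7%), and fewer of 15 (16.9% against 26.0%).

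Clone size in CD8 gave a result that turned on TRBV13. The mean count per clonotype was 3.55 in TRBV12, 3.38 in TRBV15 and 3.73 in TRBV16, against 4.54 in the other families (means of 8 libraries). On the log2 scale they were lower by differences of -0.347, -0.405 and -0.283, in 8 of 8 libraries each (exact sign-flip p = 0.00781, adjusted 0.0104). Against families that are neither these 3 nor TRBV13 the differences were 0.0843 (adjusted exact p = 0.0521), 0.0263 (0.672) and 0.149 (0.0156), so the direction turned, and the TRBV16 difference passed the test. The share of clonotypes with a single count was higher by 4.5 percentage points in TRBV12 (adjusted exact p = 0.0104). It differed by 4.51 in TRBV15 (0.0511) and 0.439 in TRBV16 (0.75), and neither passed. Without TRBV13 the differences were -1.44 in TRBV12 (adjusted exact p = 0.197), -1.42 in TRBV15 (0.469) and -5.49 in TRBV16 (0.0156), so the TRBV12 call was lost and TRBV16 passed in the opposite direction.

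**Figure D5:**
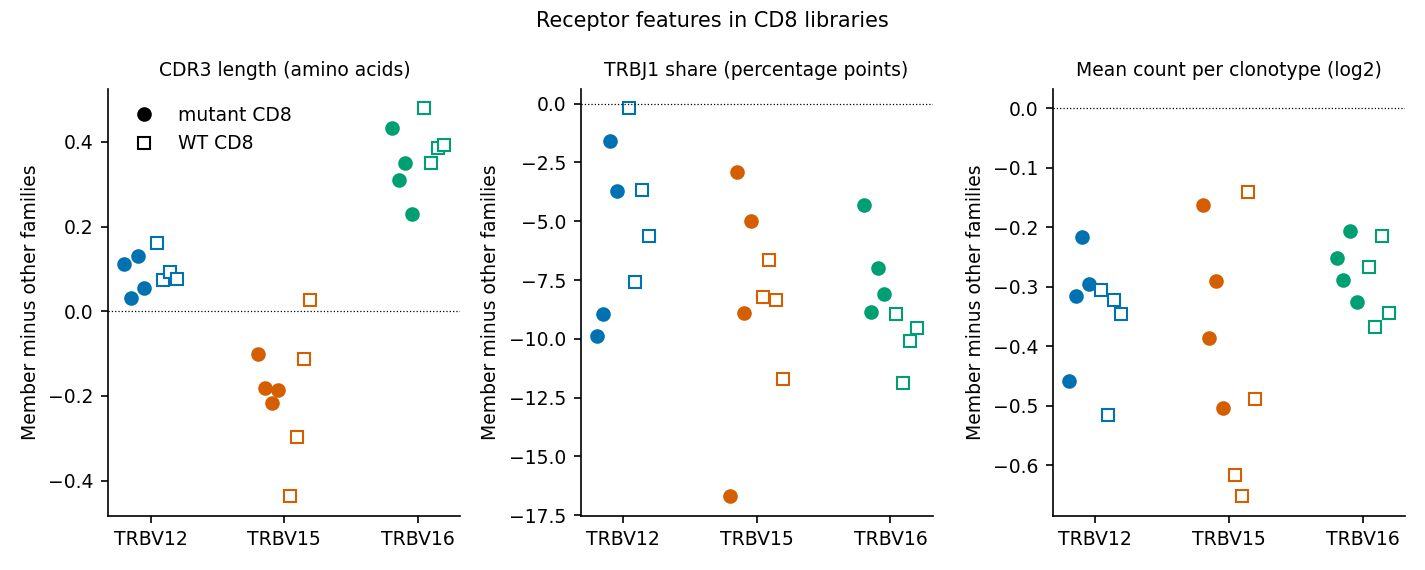
Difference between each family and the other families within 8 CD8 libraries in mean CDR3 length (amino acids), in the share of clonotypes with TRBJ1 (percentage points) and in mean count per clonotype (log2). Each point is 1 library, filled circles mutant CD8 and open squares WT CD8. All points for TRBJ1 share and clone size lie below 0, and TRBV15 and TRBV16 lie on opposite sides for length except in 1 WT CD8 library.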

How the data were processed

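TCRβ messages were amplified by 5′ RACE with 9-nucleotide molecular identifiers and sequenced on a MiSeq, per the labels' protocols. Each deposited table lists clonotypes with a count, a fraction, the CDR3, the V family and the ends of the segment matches, per the file headers. Whether a count is a read or a molecular identifier is not stated, and the aligner, the caller and the build were not given in the sources used here. Replicates are separate mice per the labels.

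Shares were recomputed from the deposited counts, as percent of clonotypes (each once) and percent of counts. A library not seen to hold a family was given a limit of 3 clonotypes. Before this, 4 alpha chain entries with 6 counts were left out. V families were tested on clonotypes with edgeR 4.0.16 (quasi-likelihood, library size the number of clonotypes, minimum count 10, called at an adjusted p under 0.05) and DESeq2 1.42.0. Single values used exact permutation tests coded with NumPy 2.4.6, and intervals are Clopper-Pearson at 95% by SciPy 1.17.1. The edgeR step was tested on simulated data.

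A TET and a CD8 library with equal strain and number were treated as coming from 1 mouse, because the design text has 4 mice per strain for both fractions. Their deviations in V family use correlated with r from -0.54 to 0.572 over 15 families. Families, lists, named clonotypes (for TRBV12 all TET clonotypes, for TRBV15 and TRBV16 the 5 of largest share and shared ones, in CD8 the largest and the most widely found) and tests were chosen with earlier results of these data known.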

Additional observations from a re-analysis of the deposited data

Results flagged for a closer look

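WT CD8 2 lay far below the other 3 WT CD8 libraries in the share of counts of TRBV12 (4.26%), of TRBV16 (5.13%) and of TRBV12, TRBV15 and TRBV16 together (11.6%). The gap to the next library was 0.881, 0.921 and 0.889 of the group's range. These are 3 of 48 groups of values examined, and chance flags about 1 in 20. The 3 values are not independent, since the third contains the others.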

How the results depend on the processing

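Of the alternatives, 351 kept the main result, 14 turned direction and 6 moved in size or in the number called. With direction kept, 3 newly passed the threshold and 2 missed it. The TET against CD8 shares have no threshold, so only their direction and size were judged. By counts, the TET minus CD8 difference of the combined share was -14.54 points and that of TRBV12 -5.199, and without single-count clonotypes that of TRBV12 was -5.881. The strain difference of the combined TET share turned to 0.02375 by counts. Against families without TRBV13 the directions turned for TRBV12 length (-0.04369), single-count share (TRBV12 -1.436, TRBV15 -1.424, TRBV16 -5.494) and log2 mean count (TRBV12 0.08426, TRBV15 0.02631, TRBV16 0.1485). Weighted by counts, TRBV12 TRBJ1 share (-4.942) and TRBV15 length (-0.1097) missed the threshold. TRBV15 single-count share passed once clonotypes with 10 times as many counts in some other library were dropped (4.478). Leaving out 1 library, its range was 2.859 to 5.417, passing without mutant CD8 1 (5.364) or WT CD8 3 (5.417), and TRBV16 single-count share ranged from -0.5032, without WT CD8 4, to 1.017. The mutant minus WT log2 difference in CD8 turned for TRBV12 without mutant CD8 4 (-0.01868) or WT CD8 2 (-0.01778), with a range up to 0.05367, and for TRBV15 without mutant CD8 3 (-0.001375), with a range up to 0.1451. The TRBV12 strain difference of the TET minus CD8 effect, which has no usable value with WT TET at 0, was fitted at 4.64 by edgeR (SE 6.51), -1.157 by DESeq2 and 5.037 by summed counts, and the TRBV16 one 0.745 by summed counts. In that test 1 family was called with TMM factors (TRBV13), without WT TET 3 (TRBV5) and without WT CD8 4 (TRBV31), named after their values were seen, and leaving out 1 library gave 0 to 1 called. The cause was not tested, apart from the change of comparison families. With mouse or replicate number as a block, 0 families were called in either edgeR comparison, and log2 differences in CD8 were 0.02 for TRBV12, 0.06 for TRBV15 and 0.10 for TRBV16. The block changed no call. Leaving out libraries for the TET against CD8 shares and folds and for the TET clonotypes found in CD8, and WT TET 2 with mutant TET 4 for the combined TET share, was added after seeing the data. WT TET libraries of 97 to 126 clonotypes limit what can be seen of families this rare.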
